A study of Mus musculus with 9 samples.

Results

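Vegfa, Pgf, Nrg1, Thbs1 and Tgfb1 encode secreted factors by which tumour macrophages act on vessels, epithelium and immune cells. The 5 genes were taken by symbol from a table of 18042 genes, and all 5 passed the filter on low counts that left 13090 genes for testing. They were selected on their measured values, with the levels and fold changes in all 3 comparisons known, so their levels and fold changes are given here as a description and without p-values. Those past the edgeR threshold are named once, beside the share of all genes past it, and nothing is read from that. Adjusted p-values are given for other genes of the same pathways, and counts of calls also for cell type markers.

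RNA had been sequenced from CD11b+ F4/80+ cells, the gate used for tumour-associated macrophages, sorted from tumours that MC38 cells, a mouse colon carcinoma line, had formed under the skin of female C57BL/6 mice of 6 to 8 weeks with the genotype label WT. The mice were grouped on day 9 and their tumours then injected with IN@OMVs, with OMVs (both at 12.5 µg vesicle protein per mouse, or 625 µg per kg body weight) or with an equal volume of solvent, which the labels give as PBS (Control). Each group held 3 libraries, numbered 1 to 3, and the labels call them biological replicates without saying whether each is 1 mouse or a pool. Neither OMVs, commonly short for the outer membrane vesicles that Gram-negative bacteria shed, nor IN is spelled out in the labels.

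VEGF-A, the main growth factor of vessel sprouting, binds the receptors VEGFR1 (Flt1) and VEGFR2 (Kdr). Placental growth factor (Pgf), of the same family, binds Flt1 and not Kdr. Neuregulin 1 (Nrg1) signals through the ErbB receptors. Thrombospondin 1 (Thbs1) restrains vessel growth through Cd36 and Cd47 and can activate latent TGF-beta, and TGF-beta 1 (Tgfb1) is made in latent form and dampens immune responses.

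The libraries held 16813230 to 17288322 expected counts. All 12 macrophage markers looked for were present in every library, with a summed level of 14484.5 to 20313.5 CPM (counts scaled to the normalised library size). Of them Cd14 fell in IN@OMVs against Control and against OMVs (edgeR, adjusted p under 0.05). It was at 321 to 406 CPM in IN@OMVs, 559 to 740 CPM in OMVs and 698 to 762 CPM in Control. DESeq2 also called Itgam, the CD11b gene, in both comparisons. Itgam was at 1079.7 to 1479.5 CPM in IN@OMVs, 1501 to 1896 CPM in OMVs and 1726 to 1798 CPM in Control. IN@OMVs 1 stood apart from the other IN@OMVs libraries, with macrophage markers summing to 20313.5 CPM against 14808.4 and 14484.5 CPM in IN@OMVs 2 and 3, and fibroblast and pericyte markers summing to 1517 CPM against 4724 and 4714 CPM in IN@OMVs 2 and 3. T cell markers were higher in library 1 of every group (291 to 335 CPM) than in the other 6 libraries (102 to 191 CPM). Neutrophil markers summed to 233 to 288 CPM in IN@OMVs, 836 to 1106 CPM in OMVs and 1135 to 1607 CPM in Control, and monocyte markers to 1290 to 1515, 1959 to 2307 and 2753 to 3072 CPM in the same order of groups. Of 12 neutrophil markers 11 fell in IN@OMVs against Control and 11 against OMVs, and of 10 monocyte markers 8 and 5 fell (edgeR, adjusted p under 0.05). In OMVs against Control edgeR called 3 monocyte markers, all lower, with 6 at an unadjusted p under 0.05, 5 called by DESeq2 and 2 with the block. In the same comparison edgeR called 0 neutrophil markers, with 6 at an unadjusted p under 0.05, 2 called by DESeq2 and 1 with the block. The neutrophil-defining Ly6g was at 2 counts in each IN@OMVs library, against 23 to 35 counts in OMVs libraries and 57 to 88 counts in Control libraries. Of the other lists, edgeR called in IN@OMVs against Control 4 of 11 conventional dendritic cell markers and 1 of 12 T cell markers as higher, 2 of 4 epithelial and 1 of 2 mast cell markers as lower and 0 of 12 fibroblast markers (1 at an unadjusted p under 0.05, 0 by DESeq2). The part of these other cells in the levels below was not tested, and in bulk RNA fewer cells of a type and less RNA per cell cannot be told apart.

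**Figure D1:**
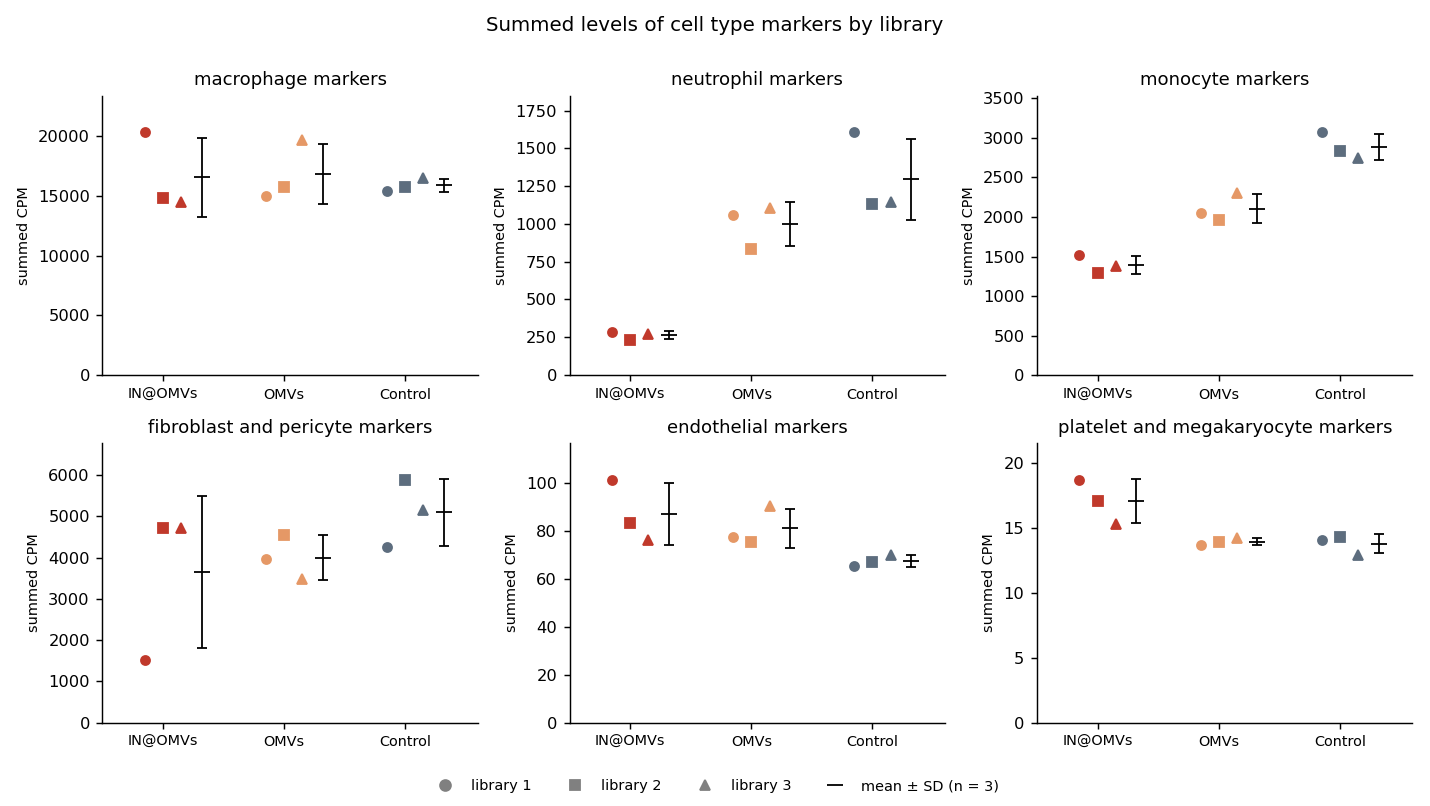
Summed CPM of 6 cell type marker lists in each library, by group, with the mean and SD of 3 libraries beside the points. Neutrophil and monocyte markers are lowest in all 3 IN@OMVs libraries, and fibroblast and pericyte markers are lowest in IN@OMVs 1.

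The 5 genes followed 4 patterns. Vegfa was higher with either vesicle. Pgf and Nrg1 were higher with OMVs and slightly lower with IN@OMVs. Thbs1 was lower mainly with IN@OMVs, and Tgfb1 lay at the same level in the 3 groups within the spread of its libraries. Between IN@OMVs and Control the libraries of 4 of the 5 did not overlap (1 higher, 3 lower), which 25.9% of all genes tested also showed (13.3% higher, 12.5% lower). Between OMVs and Control this held for 3 higher and 1 lower (19.8% of all genes, 9.89% in each direction), and between IN@OMVs and OMVs for 3 lower (17.6% of all genes, 8.86% higher and 8.72% lower). With the edgeR threshold of an adjusted p under 0.05, 2 of the 5, Vegfa (higher) and Thbs1 (lower), were among the 6.55% of genes called in IN@OMVs against Control (3.32% higher, 3.24% lower). In OMVs against Control 2, Pgf and Nrg1 (both higher), were among the 0.42% called (0.298% higher, 0.122% lower). In IN@OMVs against OMVs 3, Pgf, Nrg1 and Thbs1 (all lower), were among the 2.85% called (1.1% higher, 1.75% lower). Nothing is read from these member counts, because the choice of the genes used them. Both comparisons with Control use the same 3 Control libraries.

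**Figure D2:**
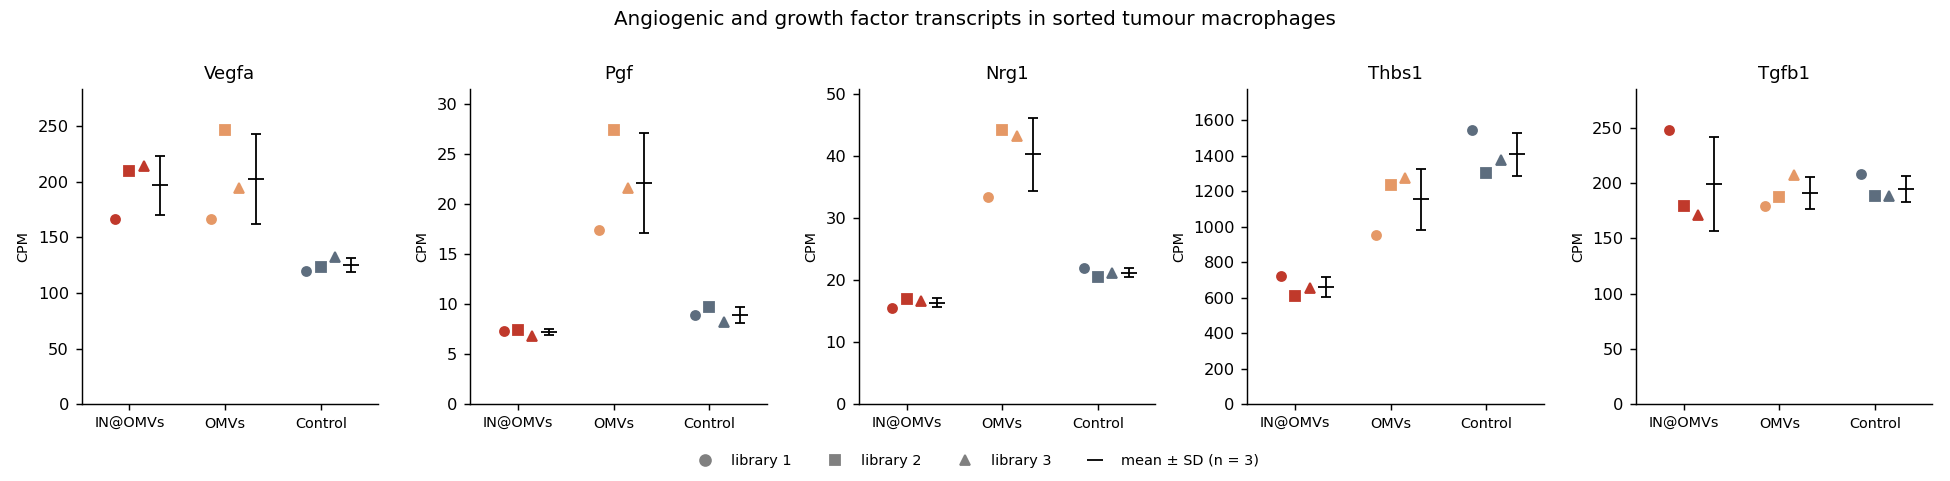
CPM of Vegfa, Pgf, Nrg1, Thbs1 and Tgfb1 in each of the 9 libraries, by group, with the mean and SD of 3 libraries beside the points. Pgf and Nrg1 stand out in OMVs, Thbs1 is lowest in IN@OMVs, and Vegfa is above Control in all 6 vesicle libraries.

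Vegfa stood at 166, 210 and 214 CPM in IN@OMVs 1, 2 and 3, at 166, 246 and 195 CPM in OMVs, and at 119.9, 123.2 and 132.4 CPM in Control. Every vesicle library was above every Control library, the IN@OMVs and OMVs ranges overlapped, and library 1 was the lowest of each vesicle group. The means were 197 ± 26.4 CPM in IN@OMVs, 202 ± 40.5 CPM in OMVs and 125 ± 6.47 CPM in Control (SD, n = 3 each). Against Control the log2 fold change was 0.65 ± 0.14 (SE) with IN@OMVs and 0.69 ± 0.14 with OMVs, and between IN@OMVs and OMVs it was -0.04 ± 0.14. In order of level OMVs and IN@OMVs came first with no difference beyond their spread, and Control last.

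Pgf, the second Flt1 ligand, stood at 7.33, 7.41 and 6.87 CPM in IN@OMVs, at 17.4, 27.4 and 21.7 CPM in OMVs, and at 8.94, 9.76 and 8.18 CPM in Control. The 3 groups did not overlap, with OMVs far above and IN@OMVs just below Control. In OMVs the mean was 22.2 ± 5.02 CPM and in Control 8.96 ± 0.79 CPM, a 2.47-fold difference (log2 1.31 ± 0.16). With IN@OMVs the mean was 7.20 ± 0.29 CPM, 3.07-fold below OMVs (log2 -1.62 ± 0.16) and close to Control (log2 -0.31 ± 0.16). The counts behind these levels were small, 118 to 130 reads in IN@OMVs, 303 to 470 in OMVs and 142 to 167 in Control.

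Vegfa and Pgf were thus both above Control in OMVs. In IN@OMVs Vegfa was above Control, and Pgf was close to it and just below (log2 -0.31 ± 0.16). Within a library, the Vegfa counts for each Pgf count were 22.7, 28.3 and 31.1 in the IN@OMVs libraries, 9.55, 8.98 and 8.97 in the OMVs libraries, and 13.4, 12.6 and 16.2 in the Control libraries. This ratio does not depend on how the libraries are scaled.

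Their promoters, and that of the receptor Flt1 described next, are shown because the 3 genes form 1 ligand and receptor set with 3 different patterns. Each sequence runs from 250 bases before to 50 after the RefSeq start farthest upstream (GRCm38.p6), printed 5′ to 3′ on the gene's strand. Capitals mark every match, on either strand, to the core of the hypoxia response element (ACGTG or GCGTG), an AP-1 type site (TGANTCA), an interferon-gamma activated type site (TTCNNNGAA), an interferon-stimulated response type site (GAAA, any NN, GAAA) or a loose NF-kB type site (GGG, any NNNNN, CC).
Vegfa, chr17:46032328-46032627, minus strand: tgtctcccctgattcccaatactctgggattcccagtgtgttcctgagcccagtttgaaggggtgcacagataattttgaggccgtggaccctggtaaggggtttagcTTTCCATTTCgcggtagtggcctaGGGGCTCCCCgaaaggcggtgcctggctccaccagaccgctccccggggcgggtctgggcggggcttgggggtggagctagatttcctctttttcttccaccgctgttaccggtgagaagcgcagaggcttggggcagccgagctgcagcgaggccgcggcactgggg
Pgf, chr12:85177264-85177563, minus strand: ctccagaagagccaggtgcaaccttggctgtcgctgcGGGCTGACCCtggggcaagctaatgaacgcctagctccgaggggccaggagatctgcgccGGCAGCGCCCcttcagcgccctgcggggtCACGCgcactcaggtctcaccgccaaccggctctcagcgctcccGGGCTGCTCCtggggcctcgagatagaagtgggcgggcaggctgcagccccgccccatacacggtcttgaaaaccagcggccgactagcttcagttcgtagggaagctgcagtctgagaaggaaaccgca
Flt1, chr5:147725962-147726261, minus strand: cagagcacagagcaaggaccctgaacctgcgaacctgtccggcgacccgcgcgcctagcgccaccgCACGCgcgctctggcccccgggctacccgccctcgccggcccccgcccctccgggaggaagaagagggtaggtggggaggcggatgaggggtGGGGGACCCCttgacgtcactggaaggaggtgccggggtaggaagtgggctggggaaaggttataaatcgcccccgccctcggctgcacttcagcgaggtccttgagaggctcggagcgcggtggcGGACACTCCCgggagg
Vegfa held 1 match to the interferon-stimulated type, which 3.44% of 32851 listed mouse promoters of this length hold, and 1 to the NF-kB type, held by 50.8%. Pgf held 1 match to GCGTG, held by 32.4%, and 3 to the NF-kB type. Flt1 held 1 match to GCGTG and 2 to the NF-kB type. In none of the 3 windows was there a match to ACGTG (held by 19.6% of promoters), TGANTCA (7.81%) or TTCNNNGAA (8.3%). A match is a run of letters, and binding was not measured. Sequence outside these windows was not searched, so a missing match says nothing of elements farther from the start. The promoter table held 2 starts for Vegfa, 2 for Pgf and 1 for Flt1.

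Flt1, the receptor that Vegfa and Pgf share, was higher with either vesicle and highest with IN@OMVs. It stood at 17.2, 18.2 and 20.3 CPM in IN@OMVs, at 10.5, 10.96 and 10.04 CPM in OMVs, and at 7.21, 6.90 and 6.80 CPM in Control, with no overlap between any 2 groups. In edgeR it rose in IN@OMVs against Control (log2 fold change 1.42 ± 0.10, adjusted p = 0.0001) and against OMVs (0.82 ± 0.09, adjusted p = 0.00248), and both calls held without any 1 library. In OMVs against Control it rose by 0.59 ± 0.10 (edgeR adjusted p = 0.0459). That call ended with the replicate number as a block (adjusted p = 0.135), with no filter on low counts (0.0638) and on leaving out any library but IN@OMVs 1 (adjusted p from 0.0843 to 0.27, log2 0.56 to 0.62). For each Flt1 count there were 0.425, 0.406 and 0.338 Pgf counts in the IN@OMVs libraries, 1.66, 2.5 and 2.16 in the OMVs libraries, and 1.24, 1.42 and 1.2 in the Control libraries. All IN@OMVs libraries lay below, and all OMVs libraries above, the Control libraries in this ratio, in which gene length cancels between libraries.

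Kdr stood at 8.44, 5.76 and 6.58 CPM in IN@OMVs, at 3.45, 3.15 and 3.58 CPM in OMVs, and at 3.696, 3.10 and 3.69 CPM in Control. Every IN@OMVs library was above all 6 others, which overlapped. Kdr rose in IN@OMVs against Control (log2 0.98 ± 0.17, edgeR adjusted p = 0.0112) and against OMVs (1.03 ± 0.17, edgeR adjusted p = 0.0167). Against Control the edgeR call ended without Control 2 (adjusted p = 0.0604) or Control 3 (0.0501). Against OMVs it ended without IN@OMVs 3 (edgeR adjusted p = 0.0538), OMVs 1 (0.0708), OMVs 2 (0.0847) or OMVs 3 (0.0593), and with only those 2 groups in the fit (0.0613). The neuropilins Nrp1 (135 ± 21.1, 121 ± 21.0 and 129 ± 8.90 CPM in IN@OMVs, OMVs and Control) and Nrp2 (226 ± 4.29, 238 ± 9.70 and 204 ± 6.53 CPM) did not pass in edgeR in any comparison, and DESeq2 called Nrp2 higher in OMVs against Control (log2 0.22).

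Kdr is also an endothelial gene. The other endothelial markers, leaving out Kdr and the TGF-beta coreceptor Eng, summed over 10 genes to 25.3 to 27.7 CPM in IN@OMVs, 38.7 to 44.9 CPM in OMVs and 28.4 to 32.9 CPM in Control. Much of that sum was Pecam1, which leukocytes also express. Without it the other 9 genes summed to 7.94 to 11.7 CPM in IN@OMVs, 10.9 to 13.3 CPM in OMVs and 8.29 to 12.8 CPM in Control, and the groups overlapped. The part of endothelial cells in the Kdr level was not tested. Of all 10 endothelial markers that were tested, Kdr and Eng rose in IN@OMVs against Control, and against OMVs Kdr rose and Pecam1 fell. Cdh5, which defines endothelium, was at 2.34 to 3.42 CPM in IN@OMVs, 2.69 to 3.27 CPM in OMVs and 2.38 to 4.09 CPM in Control.

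**Figure D3:**
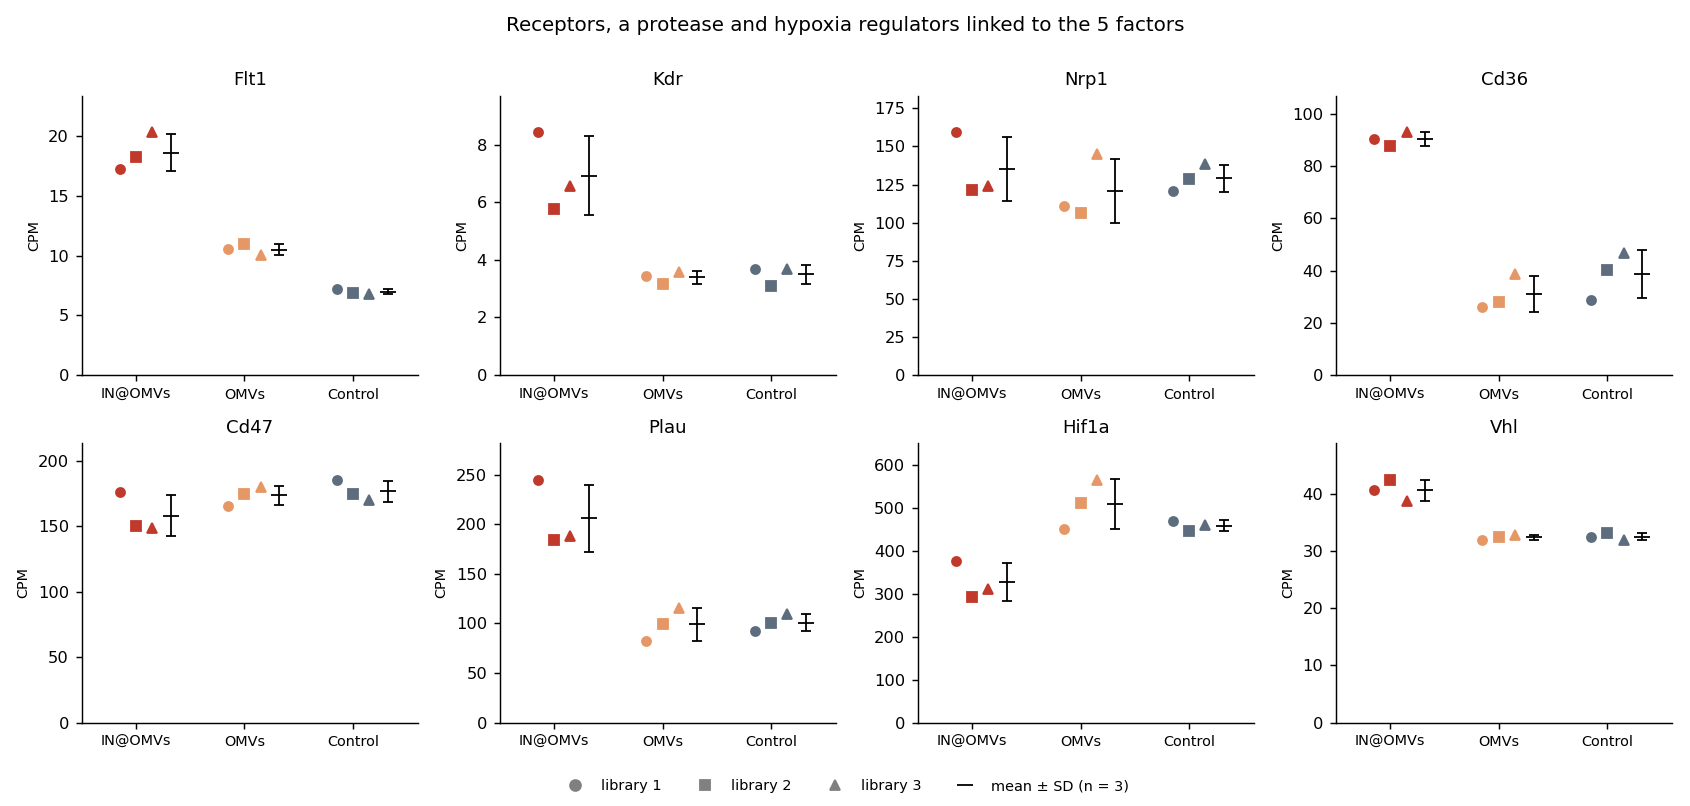
CPM of the VEGF receptors Flt1, Kdr and Nrp1, the thrombospondin receptors Cd36 and Cd47, the urokinase gene Plau and the hypoxia regulators Hif1a and Vhl in each library, by group, with mean and SD of 3 libraries. Flt1, Kdr, Cd36, Plau and Vhl are highest and Hif1a lowest in the 3 IN@OMVs libraries.

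Of 6 other VEGF and PDGF ligands tested, edgeR called 0 in each comparison, with 1 at an unadjusted p under 0.05 in each and 0 called by DESeq2. Vegfb, whose product like that of Pgf binds Flt1, stood at 14.9 ± 1.43 CPM in IN@OMVs, 15.6 ± 1.68 CPM in OMVs and 12.9 ± 1.23 CPM in Control. Its log2 fold change against Control was 0.21 ± 0.12 with IN@OMVs and 0.27 ± 0.12 with OMVs, the same direction as for Vegfa, without passing in edgeR. Among 20 other angiogenic secreted factors Ecm1, an extracellular matrix glycoprotein gene, was the 1 that passed in edgeR. It fell to 280 ± 49.7 CPM in IN@OMVs, against 468 ± 7.68 CPM in OMVs and 453 ± 10.4 CPM in Control (log2 -0.69 ± 0.11 against Control, edgeR adjusted p = 0.00681, and -0.74 ± 0.11 against OMVs, adjusted p = 0.00888). Both Ecm1 calls held without any 1 library, and that against OMVs ended with only those 2 groups in the fit (edgeR adjusted p = 0.0613). DESeq2 called 3 of the 20 in IN@OMVs against Control (Igf1, Ccn1 and Ecm1) and 2 in IN@OMVs against OMVs (Igf1 and Ecm1). With OMVs edgeR called 0 of the 20 against Control, with 0 at an unadjusted p under 0.05 and 0 by DESeq2.

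Nrg1 followed Pgf closely. It stood at 15.5, 16.99 and 16.6 CPM in IN@OMVs, at 33.4, 44.1 and 43.3 CPM in OMVs, and at 21.9, 20.6 and 21.1 CPM in Control. The groups did not overlap, with OMVs highest and IN@OMVs lowest. The mean of 40.3 ± 5.94 CPM in OMVs was 1.90-fold that of 21.2 ± 0.68 CPM in Control (log2 0.93 ± 0.11). With IN@OMVs the mean was 16.4 ± 0.77 CPM, 2.46-fold below OMVs (log2 -1.30 ± 0.11) and 1.29-fold below Control (log2 -0.37 ± 0.11). OMVs 1 was the lowest OMVs library for Nrg1, as it was for the other 4 factors.

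The partners of Nrg1 showed little of this. Of 12 tested genes for ErbB receptors, sheddases and feedback, edgeR called 0 in each comparison (3 at an unadjusted p under 0.05 in IN@OMVs against Control, 1 with OMVs against Control and 0 between the vesicles). DESeq2 called 2 in IN@OMVs against Control, the proteases Adam10 and Adam19, and 0 in the other 2 comparisons. The neuregulin receptor Erbb3 stood at 7.45 ± 0.45 CPM in IN@OMVs, 6.68 ± 0.41 CPM in OMVs and 7.44 ± 0.06 CPM in Control. Erbb4, the other neuregulin receptor, had at most 1 count in any library and was not tested. Erbb2, their shared partner, was at 4.62 CPM in IN@OMVs 1, where fibroblast markers were also low, and at 9.20 to 15.4 CPM in the other 8 libraries. Egfr, a receptor of other EGF family ligands, was low, at 1.81 CPM in IN@OMVs, 2.50 CPM in OMVs and 3.64 CPM in Control on average, and did not pass in edgeR. Adam17, which sheds several ErbB ligands, stood at 214 ± 29.1 CPM in IN@OMVs, 242 ± 24.9 CPM in OMVs and 228 ± 9.36 CPM in Control.

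Of 7 other EGF family ligands tested, Areg (amphiregulin) fell in IN@OMVs against Control (0.59 ± 0.06 against 1.54 ± 0.31 CPM, log2 -1.38 ± 0.31, edgeR adjusted p = 0.0298), at a level near the filter. Its call ended without IN@OMVs 2 or 3, OMVs 3 or any 1 Control library (edgeR adjusted p from 0.0543 to 0.109, log2 -1.47 to -1.20 over all omissions). Against Control edgeR called 0 of the 7 with OMVs, with 0 at an unadjusted p under 0.05 and 0 by DESeq2, and in IN@OMVs against OMVs it called 0, with 2 at an unadjusted p under 0.05 and 0 by DESeq2. No ligand of this list was higher past the threshold in any comparison.

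**Figure D4:**
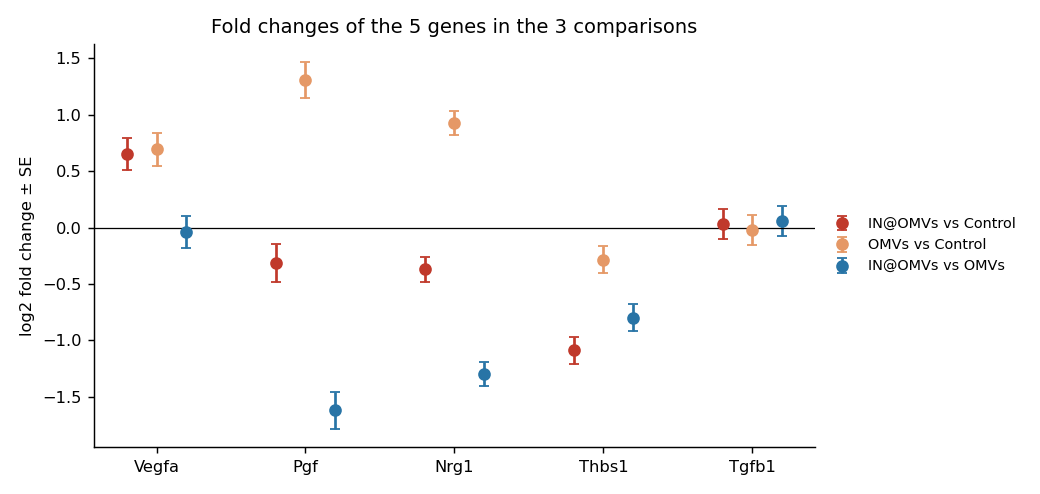
Log2 fold change with its standard error of each of the 5 genes in the 3 comparisons. Pgf and Nrg1 have opposite signs against Control with OMVs and with IN@OMVs, Vegfa is near 0 between the vesicles, and Tgfb1 is near 0 throughout.

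Thbs1 was the most abundant of the 5. It stood at 722, 610 and 655 CPM in IN@OMVs, at 956, 1234 and 1274 CPM in OMVs, and at 1544, 1303 and 1378 CPM in Control. The IN@OMVs libraries lay well below the rest, while the OMVs libraries ended just under the lowest Control library. The mean of 662 ± 56.1 CPM in IN@OMVs was 2.13-fold below that of 1409 ± 123.02 CPM in Control (log2 -1.09 ± 0.12) and 1.74-fold below that of 1154 ± 173 CPM in OMVs (log2 -0.80 ± 0.12). For OMVs against Control the log2 fold change was -0.29 ± 0.12, and -0.10 with libraries 2 and 3 alone. The order of the levels was Control, OMVs, IN@OMVs, with OMVs and Control close to each other. Per kilobase of merged GENCODE M21 exons, Thbs1 was also the highest of the 5, at 109 CPM per kb in IN@OMVs, 190.1 CPM per kb in OMVs and 232 CPM per kb in Control, and Tgfb1 (39.5, 37.9 and 38.6) and Vegfa (45.9, 47.2 and 29.2) came next. Pgf (2.48, 7.63 and 3.09) and Nrg1 (1.58, 3.89 and 2.05) were lowest on that scale.

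With Thbs1 lower and Vegfa higher, their ratio differed between all groups. Each Vegfa count was matched by 4.34, 2.91 and 3.06 Thbs1 counts in the IN@OMVs libraries, by 5.75, 5.01 and 6.55 in the OMVs libraries, and by 12.9, 10.6 and 10.4 in the Control libraries. The group means were 3.44 ± 0.79, 5.77 ± 0.77 and 11.3 ± 1.38 in that order (SD, n = 3 each), with no overlap. Neutrophil and monocyte markers were ordered as Thbs1 was, with IN@OMVs lowest and Control highest, and their part in the Thbs1 level was not tested. Platelets carry much thrombospondin 1, and of 6 platelet and megakaryocyte markers tested edgeR called 0 in each comparison (1 at an unadjusted p under 0.05 in IN@OMVs against Control, 0 in the other 2 comparisons, and 0 by DESeq2 in each). All 11 platelet markers in the table summed to 15.3 to 18.7 CPM in IN@OMVs, 13.7 to 14.2 CPM in OMVs and 12.95 to 14.3 CPM in Control.

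The Thbs1 receptor Cd36, a scavenger receptor that also takes up lipids, ran the other way in IN@OMVs. It stood at 90.5, 87.9 and 93.0 CPM in IN@OMVs, at 26.1, 28.1 and 38.8 CPM in OMVs, and at 28.8, 40.3 and 46.9 CPM in Control. All 3 IN@OMVs libraries were far above the other 6. In OMVs against Control the mean of Cd36 was lower, as that of Thbs1 was (log2 -0.32 ± 0.19 for Cd36, not passing in edgeR). Cd36 rose in IN@OMVs against Control (log2 1.23 ± 0.18, edgeR adjusted p = 0.00482) and against OMVs (1.54 ± 0.19, adjusted p = 0.00299), and both calls held without any 1 library. Cd47, the broadly expressed receptor that also restrains phagocytes, stood at 158 ± 15.7 CPM in IN@OMVs, 174 ± 7.17 CPM in OMVs and 177 ± 7.97 CPM in Control. It did not pass in edgeR over all libraries, and without IN@OMVs 1 it fell in IN@OMVs against Control (log2 -0.25, edgeR adjusted p = 0.0242). The integrin chain Itgav stood at 157 ± 5.24 CPM in IN@OMVs, 176 ± 6.17 CPM in OMVs and 182 ± 9.27 CPM in Control (log2 -0.21 ± 0.06 for IN@OMVs against Control, edgeR adjusted p = 0.0681), and DESeq2 called it.

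Of the 10 Thbs1 receptors tested the other edgeR call was Lrp1, an endocytic receptor that clears thrombospondin, which fell in IN@OMVs against Control (1493 ± 20.5 against 1793 ± 7.83 CPM, log2 -0.26 ± 0.06, edgeR adjusted p = 0.0234, and 0.0723 with the block). The Lrp1 call ended without IN@OMVs 2 or 3, OMVs 2 or any 1 Control library (edgeR adjusted p from 0.0553 to 0.123), with only the 2 groups in the fit (0.061) and with no filter on low counts (0.0593). Against OMVs Lrp1 was called by edgeR without IN@OMVs 1 (log2 -0.24, adjusted p = 0.0298), and DESeq2 called 3 receptors in that comparison, Cd36, Lrp1 and Sdc4. With OMVs edgeR called 0 of the 10 receptors against Control, with 2 at an unadjusted p under 0.05 and 0 by DESeq2.

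Among 16 other thrombospondins and angiogenesis inhibitors, the chemokines Cxcl9 and Cxcl10, which also restrain vessel growth, rose and Timp1 fell. Earlier results of these data were known when the 2 chemokines were listed, so they are no independent evidence of direction. Cxcl9 rose to 1001 ± 154 CPM in IN@OMVs and 783 ± 138 CPM in OMVs, against 431 ± 12.9 CPM in Control. Its log2 fold change was 1.22 ± 0.14 for IN@OMVs (edgeR adjusted p = 0.00121) and 0.86 ± 0.14 for OMVs (adjusted p = 0.0444, and 0.129 with the block). Cxcl10 changed by 0.99 ± 0.12 in IN@OMVs (edgeR adjusted p = 0.00176) and 0.74 ± 0.12 in OMVs (adjusted p = 0.0459, and 0.135 with the block) against Control. Both OMVs calls held only without IN@OMVs 1 or OMVs 1, and without each of the other 7 libraries the edgeR adjusted p lay between 0.0675 and 0.285. Both IN@OMVs calls held without any 1 library.

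Timp1, a metalloproteinase inhibitor, fell to 38.3 ± 13.5 CPM in IN@OMVs, against 86.5 ± 10.7 CPM in OMVs and 100.3 ± 18.2 CPM in Control. The log2 fold change was -1.39 ± 0.25 against Control (edgeR adjusted p = 0.0127), ending without Control 2 (adjusted p = 0.0586) or Control 3 (0.0533). Against OMVs it was -1.17 ± 0.25 (edgeR adjusted p = 0.0448), and that call held only without IN@OMVs 1 (adjusted p from 0.0547 to 0.174 without each of the other 8, and 0.128 with only those 2 groups in the fit). Timp1 is also made by fibroblasts, and it was lowest in IN@OMVs 1 (22.7 CPM), the library with the lowest summed fibroblast markers. The part of those cells was not tested.

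Tgfb1 stood at 248, 179 and 171 CPM in IN@OMVs, at 179, 187 and 207 CPM in OMVs, and at 208, 188 and 188 CPM in Control. The 3 groups overlapped, and IN@OMVs 1 was the highest of all 9 libraries. The means were 199 ± 42.2 CPM in IN@OMVs, 191 ± 14.5 CPM in OMVs and 195 ± 11.5 CPM in Control (SD, n = 3 each). Against Control the log2 fold change was 0.03 ± 0.13 with IN@OMVs and -0.03 ± 0.13 with OMVs, and between IN@OMVs and OMVs it was 0.06 ± 0.13. Without IN@OMVs 1 the value against Control was -0.16 and that against OMVs -0.13, so the sign of both differences rested on that library. No order of the 3 levels is drawn.

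Of the related ligands, Tgfb3 stood at 27.2 ± 5.32 CPM in IN@OMVs, 34.1 ± 5.07 CPM in OMVs and 31.2 ± 2.31 CPM in Control, and Tgfb2 at 0.39 ± 0.13, 0.60 ± 0.17 and 0.70 ± 0.25 CPM, and neither passed in edgeR. Of 8 tested TGF-beta superfamily ligands Gdf15, a stress-induced cytokine gene, and Gdf3 rose in IN@OMVs against Control. Gdf15 stood at 5.33 ± 1.25 CPM in IN@OMVs and 1.80 ± 0.37 CPM in Control (log2 1.56 ± 0.23, edgeR adjusted p = 0.00439), and its call held without any 1 library. Against OMVs Gdf15 was called without IN@OMVs 1 (log2 1.01, edgeR adjusted p = 0.0169) and not over all libraries (adjusted p = 0.0909). Gdf3 changed by 0.92 ± 0.20 (edgeR adjusted p = 0.0251, and 0.0536 with the block). The Gdf3 call ended without Control 1 (edgeR adjusted p = 0.0999), Control 2 (0.106) or Control 3 (0.0685), and with only the 2 groups in the fit (0.0523).

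Inhba, which encodes the activin A subunit, fell in IN@OMVs against OMVs (46.1 ± 9.74 against 80.8 ± 16.3 CPM, log2 -0.81 ± 0.17, edgeR adjusted p = 0.0431). Its call held only without IN@OMVs 1 (edgeR adjusted p from 0.0505 to 0.142 without each of the other 8 libraries, and 0.155 with only those 2 groups in the fit). Its Control libraries, at 53.2 to 58.3 CPM, lay below every OMVs library, so Inhba, like Pgf and Nrg1, had its highest values in OMVs. No call was made by edgeR among the 8 ligands in OMVs against Control (0 of 8), with 2 at an unadjusted p under 0.05 and 0 by DESeq2.

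Of 13 genes for TGF-beta latency and activation, Plau, the urokinase gene whose product makes plasmin, was the 1 called by edgeR. DESeq2 called Plau in IN@OMVs against Control, and Plau and Lrrc32 in IN@OMVs against OMVs. Plau rose to 245, 185 and 189 CPM in IN@OMVs, against 82.5, 99.7 and 116 CPM in OMVs and 92.5, 100.3 and 109.5 CPM in Control. The log2 fold change was 1.03 ± 0.14 against Control (edgeR adjusted p = 0.0035) and 1.05 ± 0.14 against OMVs (adjusted p = 0.00581), and both calls held without any 1 library. Nrros, which holds latent TGF-beta on macrophages, stood at 243 ± 51.2 CPM in IN@OMVs, 223 ± 23.3 CPM in OMVs and 198 ± 6.39 CPM in Control and did not pass in edgeR. Its expected counts were fractional in all 9 libraries, which marks reads that other sequences share. Furin, the protease that cleaves the TGF-beta precursor, stood at 301 ± 23.2, 320 ± 24.6 and 336 ± 15.5 CPM, and the activating integrin chain Itgb8 at 3.62 ± 1.44, 3.64 ± 0.46 and 3.38 ± 0.32 CPM in the same order of groups. EdgeR called 0 of the 13 in OMVs against Control, with 0 at an unadjusted p under 0.05 and 0 by DESeq2.

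Of 20 TGF-beta receptor and SMAD genes tested, Eng (endoglin) rose in IN@OMVs against Control (53.2 ± 10.7 against 32.8 ± 0.66 CPM, log2 0.69 ± 0.14, edgeR adjusted p = 0.0196). The Eng call ended without Control 1 (edgeR adjusted p = 0.0689), Control 2 (0.0859) or Control 3 (0.0839). Tgfbr1 stood at 187 ± 29.2 CPM in IN@OMVs, 151 ± 23.8 CPM in OMVs and 182 ± 15.3 CPM in Control, and Tgfbr2 at 193 ± 24.8, 168 ± 21.4 and 168 ± 2.93 CPM, and neither passed in edgeR. EdgeR called 0 of the 20 in OMVs against Control (0 at an unadjusted p under 0.05, 0 by DESeq2) and 0 in IN@OMVs against OMVs (2 at an unadjusted p under 0.05, 1 by DESeq2, Eng).

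TGF-beta response genes went both ways. Of 14 tested, Junb, an AP-1 subunit gene, fell to 266 ± 28.2 CPM in IN@OMVs, against 399 ± 12.5 CPM in OMVs and 452 ± 35.8 CPM in Control. Its log2 fold change was -0.77 ± 0.09 against Control (edgeR adjusted p = 0.00113) and -0.59 ± 0.09 against OMVs (adjusted p = 0.0081), and both calls held without any 1 library. Tgif1, a repressor of SMAD transcription, rose in IN@OMVs against Control (0.29 ± 0.06, edgeR adjusted p = 0.0214, and 0.0516 with the block). The Tgif1 call ended without IN@OMVs 3 (edgeR adjusted p = 0.0776), Control 1 (0.0573), Control 2 (0.0901) or Control 3 (0.1). Pmepa1, a feedback inhibitor of TGF-beta signalling, fell in OMVs against Control (82.6 ± 0.65 against 109 ± 9.03 CPM, log2 -0.40 ± 0.07, edgeR adjusted p = 0.0444, and 0.125 with the block). The Pmepa1 call held only without IN@OMVs 1 (edgeR adjusted p from 0.0523 to 0.285 without each of the other 8 libraries). Against Control with IN@OMVs it was called without Control 1 (log2 -0.26, edgeR adjusted p = 0.0455) and not over all libraries (adjusted p = 0.129).

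Hypoxia is the best known inducer of Vegfa, acting through the HIF factors, so 20 HIF pathway and hypoxia response genes were listed. In IN@OMVs against Control edgeR called 4 higher, namely Vhl, Car9, Egln3 and Higd1a, and Hif1a lower, with 10 at an unadjusted p under 0.05. DESeq2 called 7 there, these and Arnt and Ndrg1. In IN@OMVs against OMVs edgeR called Vhl higher and Hif1a lower, with 6 at an unadjusted p under 0.05. DESeq2 called 4 in that comparison, Hif1a, Arnt, Vhl and Car9. Hif1a, the oxygen-regulated HIF subunit, stood at 376, 292 and 312 CPM in IN@OMVs, at 450, 511 and 565 CPM in OMVs, and at 470, 446 and 459 CPM in Control. The 3 IN@OMVs libraries lay below the other 6. Its log2 fold change was -0.49 ± 0.11 against Control (edgeR adjusted p = 0.0298, and 0.0613 with the block) and -0.64 ± 0.11 against OMVs (adjusted p = 0.016). Against Control it was not called without IN@OMVs 2 or 3, OMVs 2 or any 1 Control library (edgeR adjusted p from 0.0572 to 0.117), and against OMVs not without IN@OMVs 2 or 3 or OMVs 2 or 3 (0.051 to 0.0777). With only the 2 groups in the fit the edgeR adjusted p was 0.05035 against Control and 0.0613 against OMVs. The mean Hif1a level was lower, and the mean Vegfa level higher, in IN@OMVs than in Control. The part of hypoxia or HIF in the Vegfa level was not tested.

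Vhl, which marks HIF for degradation, rose to 40.6 ± 1.89 CPM in IN@OMVs, against 32.3 ± 0.49 CPM in OMVs and 32.5 ± 0.64 CPM in Control (log2 0.32 ± 0.05 against Control, edgeR adjusted p = 0.00948, and 0.33 ± 0.05 against OMVs, adjusted p = 0.0155). These calls ended without Control 3 against Control (edgeR adjusted p = 0.0568), and without IN@OMVs 2 or any 1 OMVs library against OMVs (0.051 to 0.0724) or with only those 2 groups in the fit (0.0929). The hypoxia-induced carbonic anhydrase gene Car9 stood at 8.25, 14.03 and 12.2 CPM in IN@OMVs, at 6.32, 7.11 and 5.20 CPM in OMVs, and at 4.89, 5.32 and 5.47 CPM in Control (log2 1.14 ± 0.20 against Control, edgeR adjusted p = 0.0118). The Car9 call ended without Control 1 (edgeR adjusted p = 0.055) or Control 2 (0.0557). Against OMVs Car9 was called without IN@OMVs 1 (log2 1.08, edgeR adjusted p = 0.00252) and not over all libraries (adjusted p = 0.0554).

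Egln3, an oxygen-sensing prolyl hydroxylase that HIF induces, stood at 49.9 ± 3.18 CPM in IN@OMVs, 51.2 ± 4.82 CPM in OMVs and 35.0 ± 3.84 CPM in Control. It rose in IN@OMVs against Control (log2 0.51 ± 0.10, edgeR adjusted p = 0.0158), a call that ended without IN@OMVs 2 (adjusted p = 0.0521), IN@OMVs 3 (0.0544), Control 2 (0.0773) or Control 3 (0.0737). Its log2 fold change in OMVs against Control was 0.55 ± 0.10 without passing in edgeR (adjusted p = 0.0615, and 0.016 without IN@OMVs 1), and DESeq2 called it (adjusted p = 0.0004). Higd1a, a mitochondrial hypoxia gene, changed by 0.32 ± 0.06 in IN@OMVs against Control (edgeR adjusted p = 0.0191), and that call ended without IN@OMVs 2 (0.0587), IN@OMVs 3 (0.0579), Control 1 (0.0671) or Control 2 (0.0924). Against Control edgeR called 0 of the 20 with OMVs, with 4 at an unadjusted p under 0.05 and 1 by DESeq2, Egln3.

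**Figure D5:**
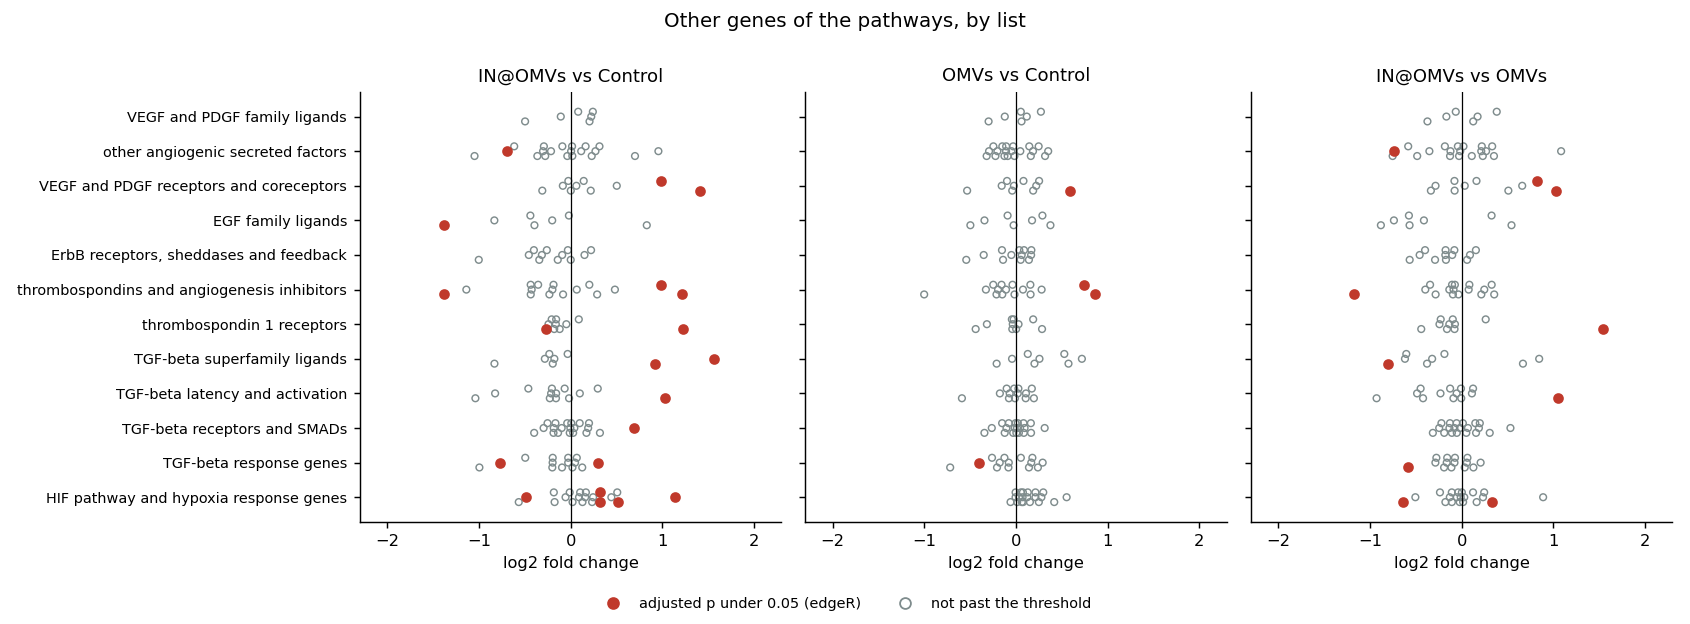
Log2 fold change of each tested gene of the 12 pathway lists, leaving out the 5 genes themselves, in the 3 comparisons, with filled points for genes at an adjusted p under 0.05 in edgeR. Most points lie near 0, and the filled points are fewest in OMVs against Control.

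Over the 12 lists together, 156 genes besides the 5 were tested. In IN@OMVs against Control 14 rose and 6 fell, or 12.8% against 6.55% of all genes, with a median log2 fold change of -0.04 (all genes 0.00). With OMVs 3 rose and 1 fell against Control, 2.56% against 0.42%, with a median of 0.01. In IN@OMVs against OMVs 5 rose and 5 fell, 6.41% against 2.85%, with a median of -0.08. The lists were chosen with earlier results of these data known, so no enrichment is read from these shares. Cxcl9 and Cxcl10, listed with that knowledge, are among the genes that rose in both comparisons with Control. The count for IN@OMVs against Control was 34 without IN@OMVs 1, 9 without Control 2 and 10 without Control 3. The OMVs against Control count was 0 with the block (22 at an unadjusted p under 0.05 in edgeR, and 6 called by DESeq2 without it), 2 without OMVs 1, 6 without IN@OMVs 1 and 0 without each of the other 7 libraries. The IN@OMVs against OMVs count was 20 without IN@OMVs 1 and between 5 and 6 without IN@OMVs 2, IN@OMVs 3, OMVs 2 or OMVs 3.

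The genes whose log2 CPM ran most like each factor over the 9 libraries were sought among 10535 genes of at least 5 CPM, and Pearson's r is given as a description over libraries that share 3 groups. For Pgf they were Nrg1 (r = 0.98), Vcam1 (0.96), an adhesion receptor for leukocytes, and Procr (0.96), the protein C receptor. For Nrg1 they were Nos2 (r = 0.98), the inducible nitric oxide synthase, Pgf (0.98) and Vcam1 (0.98). Nos2 stood at 183 to 188 CPM in IN@OMVs, 311 to 490 CPM in OMVs and 237 to 270 CPM in Control, again with OMVs 1 lowest of its group. Vcam1 stood at 186 to 194, 241 to 296 and 203 to 219 CPM in that order of groups.

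For Thbs1 the nearest genes were Ptp4a1 (r = 0.99), a phosphatase, Cd44 (0.99), the hyaluronan receptor, and Clec4e (0.99), the Mincle receptor for microbial glycolipids. Clec4e stood at 108 to 134 CPM in IN@OMVs, 187 to 243 CPM in OMVs and 226 to 266 CPM in Control. For Vegfa they were Trim65 (r = 0.97), Nol8 (0.97) and Ccdc137 (0.93), whose own ranges were narrow, with Nol8 at 26.5 to 30.2 CPM over all 9 libraries. For Tgfb1 they were Gapt (r = 0.98), the adaptor gene Grb2 (0.98) and Gpsm3 (0.98), and each of these 3 was highest in IN@OMVs 1, as Tgfb1 was.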

How the data were processed

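RNA was measured in 9 libraries, 3 each of IN@OMVs, OMVs and Control. The table the authors deposited holds expected counts per gene and library, not normalised, a unit settled from the values, of which 88.8% to 89.6% in a library were whole. The submitters' processing notes list the tools RSEM, Bowtie2 and BWA and the builds mm9 and hg19, without versions or roles. RNA had been extracted with TRIzol and captured on oligo-dT beads.

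After rounding of the expected counts, edgeR 4.0.16 (R 4.3.3) was run (quasi-likelihood, TMM factors, filterByExpr, 1 mean per group over 9 libraries, 13090 genes), with Benjamini-Hochberg adjustment over all genes in each comparison and a threshold of 0.05. P-values measure the spread between libraries, which the labels call biological replicates. Whether each is 1 mouse or a pool, and how much of the spread is technical, is not known. Levels are CPM with the SD over 3 libraries, and fold changes are log2 values with the standard error of the fit. The sequences are RefSeq's, GRCm38.p6. DESeq2 1.42.0 was an alternative. The edgeR steps were tested on simulated counts drawn independently for each library. Those held no shared deviation by library number and no library set apart, so they do not bear on calls that end without 1 library.

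The 5 genes, the 12 pathway lists and the marker lists were chosen with earlier results of these data known. Named were the 5 genes, 21 fixed pathway genes, up to 4 called genes per list and comparison with the smallest p, and the 3 genes most like each factor, leaving out predicted models.

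Libraries of the same number deviated together from their group means (r = 0.45, 0.31 and 0.15 for IN@OMVs and Control, 0.53, 0.37 and 0.12 for OMVs and Control). This pairing by number was read from the data and not the labels. Libraries 2 and 3 also deviated together across numbers (IN@OMVs 2 with Control 3 at 0.36, IN@OMVs 3 with Control 2 at 0.29, OMVs 2 with Control 3 at 0.35), so the numbers 2 and 3 are not set apart by this check. For IN@OMVs and OMVs the same numbers did not all deviate together (0.07, 0.51 and -0.37), and IN@OMVs 1 with OMVs 3 was at 0.44. The main fit had no term for the number, and an alternative fit took it as a block in every comparison. Results with the number as a block appear where a named pathway gene lost its call, and for the neutrophil and monocyte markers.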

Additional observations from a re-analysis of the deposited data

How the results depend on the processing

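Every log2 fold change of the 5 factors except those of Tgfb1 and of Vegfa in IN@OMVs against OMVs kept its sign under every alternative. Over the omissions of 1 library, Tgfb1 ran from -0.16 to 0.13 for IN@OMVs against Control and from -0.13 to 0.16 for IN@OMVs against OMVs. With libraries 2 and 3 alone, chosen after seeing the data, the log2 fold change was 1.07 for Nrg1 and -0.10 for Thbs1 in OMVs against Control, and -0.18 for Tgfb1 and -0.99 for Thbs1 in IN@OMVs against OMVs.

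All 34 called results of named pathway genes kept their direction, and 13 kept their call without any 1 library. DESeq2 and DESeq2 size factors in edgeR kept all 34, no filter kept 32 and only the 2 groups compared kept 25. The replicate block kept 16 of 20 in IN@OMVs against Control, 0 of 4 in OMVs against Control and 10 of 10 in IN@OMVs against OMVs.

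In IN@OMVs against Control edgeR called 858 genes, 519 with only the 2 groups compared, 1475 with libraries 2 and 3 alone and 393 to 1635 without 1 library. The pathway count of 20 became 43 with libraries 2 and 3 alone and 9 to 34 without 1 library. In OMVs against Control it called 55 genes, 115 with only the 2 groups, 20 with the replicate block, 313 with libraries 2 and 3 alone and 0 to 266 without 1 library (734, 942, 787 and 803 at an unadjusted p under 0.05 where it called 0, without OMVs 2, OMVs 3, Control 2 and Control 3), and DESeq2 called 207. The pathway count of 4 became 0 with the replicate block (22 at an unadjusted p under 0.05), 18 with libraries 2 and 3 alone and 0 to 6 without 1 library. In IN@OMVs against OMVs edgeR called 373 genes, 195 with only the 2 groups, 844 with libraries 2 and 3 alone and 180 to 786 without 1 library, and DESeq2 called 646. The pathway count of 10 became 4 with only the 2 groups, 30 with libraries 2 and 3 alone and 5 to 20 without 1 library, and 18 in DESeq2. The cause of these shifts was not tested.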
